A study of Mus musculus with 16 samples.

Results

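Long intergenic non-coding RNAs (lincRNAs) were measured with 16251 of the 55681 probes on the array that are not controls (29.2%). They were taken by their probe name, which begins with A_30_P and marks the lincRNA content of the array design, and no measured value entered the choice. The 16251 probes read 4622 targets. Of these, 4607 are intergenic regions on a given strand (16181 probes, 8171 on targets whose name ends in F and 8010 on targets ending in R, read here as the forward and reverse strand), 3 are regions without a strand (13 probes) and 12 are RNAs with a name of their own (57 probes). A target had between 1 and 10 probes, with a median of 3. The regions are 10676 bases long at the median, and 1067 of the 3540 distinct intervals carried probes to both strands. Probes of 1 target, and of targets that overlap, read the same transcript or neighboring stretches and are not independent.

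Gene expression was measured on one-color Agilent arrays in mouse embryonic stem (ES) cells with intact Sp1 (Sp1+/+, labelled E14) and in Sp1-/- ES cells, whose mutated locus gives a truncated Sp1 protein without its DNA-binding domain. Both were differentiated in vitro toward blood, and 4 populations of each genotype were collected in 2 replicates, 16 arrays in all. Flk1+ cells came from embryoid bodies and contain the hemangioblast. HE1 (KIT+ Tie2+ CD41-) and HE2 (KIT+ Tie2+ CD41+) are successive stages of the hemogenic endothelium. The progenitors (KIT+ Tie2- CD41+) are the blood precursors, and all 3 were sorted from blast culture. The study calls the progenitors floating, but its methods pool floating and adherent cells before this sort. The Sp1-/- cells are a single clone, and the strain given for every sample is C57BL/6. The ES cells of both genotypes had been kept on embryonic fibroblasts and were then passaged without them before differentiation. Replicates are labelled as independent biological ones, but a legend of the study speaks of technical replicates, so that each p may cover technical spread only.

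LincRNAs are transcripts without a protein product from stretches between coding genes. Many are found in few cell types and at low levels, some stay in the nucleus and help to build nuclear bodies or to silence genes nearby, and some are hosts of microRNAs. Sp1 is a ubiquitous zinc-finger transcription factor that binds GC-rich boxes, mostly in promoters, and whose loss disturbs the path from mesoderm to blood.

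The deposited tables give each probe a target but no probe sequence. The sequences shown are therefore those tied to 2 of the named RNAs, taken from RefSeq with GRCm38.p6 coordinates. H19, a maternally expressed imprinted RNA, had all its probes called lower in each population and is the host of miR-675. H19 lies at chr7:142575530-142578146, and both mature forms lie inside it on the minus strand, the 3p form at chr7:142577078-142577099 and the 5p form at chr7:142577112-142577133. Bases 2 to 8, the seed, are in capitals.
mmu-miR-675-3p: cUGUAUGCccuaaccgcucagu
mmu-miR-675-5p: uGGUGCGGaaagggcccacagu
The mature microRNAs were not read by the lincRNA probes. Promoter stretches of 300 bases were found for 6 of the 12 named RNAs (Kcnq1ot1, Malat1, Nron, Pinc, Tug1 and Xist) and were searched on both strands for the GC box core GGGCGG. Only that of Tug1, at chr11:3648765-3649064 on the minus strand, held it, at 1 place, in capitals. It is shown as the only 1 of the 6 with the core. No TUG1 probe was called for an Sp1 effect, and whether Sp1 acts at this core was not tested. Of all 32851 promoters in the same table, 35.7% held the core.
Tug1 promoter: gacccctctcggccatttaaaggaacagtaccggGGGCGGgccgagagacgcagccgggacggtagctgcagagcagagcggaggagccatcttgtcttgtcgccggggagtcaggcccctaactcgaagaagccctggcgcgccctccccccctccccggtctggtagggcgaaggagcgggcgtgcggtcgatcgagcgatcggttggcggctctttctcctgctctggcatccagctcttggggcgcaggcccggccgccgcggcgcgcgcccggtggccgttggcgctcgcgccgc

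All values are the log2 intensities the authors deposited. A probe is described as called where limma's unadjusted p was at most 0.01 with at least a 2-fold change, and each adjusted p is a Benjamini-Hochberg value over all 55681 probes. The thresholds are those of the published methods. Each genotype had a slide of its own, 8 arrays on each, and in any difference between Sp1-/- and Sp1+/+ cells genotype and slide cannot be told apart. The number of arrays limits the precision. The Sp1 probe, whose position relative to the mutated stretch was not determined, read between 12.14 and 12.56 on the Sp1+/+ arrays and between 9.03 and 10.29 on the Sp1-/- arrays, and was called lower in each population. The sorted cells carried their markers, with 5 of 5 Flk1+ markers well above background in both Flk1+ groups. For hemogenic endothelium 7 of 7 markers were in HE1 and HE2 of both genotypes, and 8 of 8 blood markers were in both progenitor groups. These counts do not tell the populations apart. The endothelium markers were also 7 of 7 in both Flk1+ groups and in Sp1+/+ progenitors. The blood markers were also 8 of 8 in HE2 of both genotypes, and 7 of 8 in Flk1+ cells and HE1. Markers of other cells were also read, with 5 of 5 muscle markers, 4 or 5 of 5 ES cell markers, 3 to 5 of 5 fibroblast markers and 1 to 4 of 5 endoderm markers well above background in each group. In these bulk samples, fewer cells of a type and less RNA per cell cannot be told apart.

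The first question was how many of the lincRNA probes gave a signal at all. The scanner's flag for a spot well above background was set on both arrays of a group for 52.6% of them (8543 probes, Sp1+/+ HE2) to 62.4% (10139 probes, Sp1-/- Flk1+ cells). The other 39430 probes, most of them for coding genes, reached 68.9% to 74.9%. In at least 1 of the 8 groups, 11551 lincRNA probes (71.1%) were well above background against 81.0% of the other probes. In all 8 groups, 7291 (44.9%) were against 62.6%, and 3043 lincRNA probes (18.7%) were not well above background on any of the 16 arrays against 12.7% of the others.

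Counted by target, 4221 of the 4622 targets had at least 1 such probe and 2143 had all of theirs. Of the 1067 intervals with probes to both strands, 952 were detected on both, 51 on the forward and 53 on the reverse strand alone, and 11 on neither. In each population the Sp1-/- share was above the Sp1+/+ share, by probes as listed and for the other probes as well, in a comparison that follows the slides. Detection in exactly 1 of the 4 populations was found for 1009 lincRNA probes (6.21%, others 4.33%) in Sp1+/+ cells and for 1186 (7.3%, others 5.1%) in Sp1-/- cells. Most of these were seen in the Flk1+ cells (420 in Sp1+/+, 532 in Sp1-/-) or in the progenitors (352 and 412), and few in HE2 (79 and 58). These shares rest on a threshold at the dim end of the scale, where most lincRNA probes lie.

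**Figure D1:**
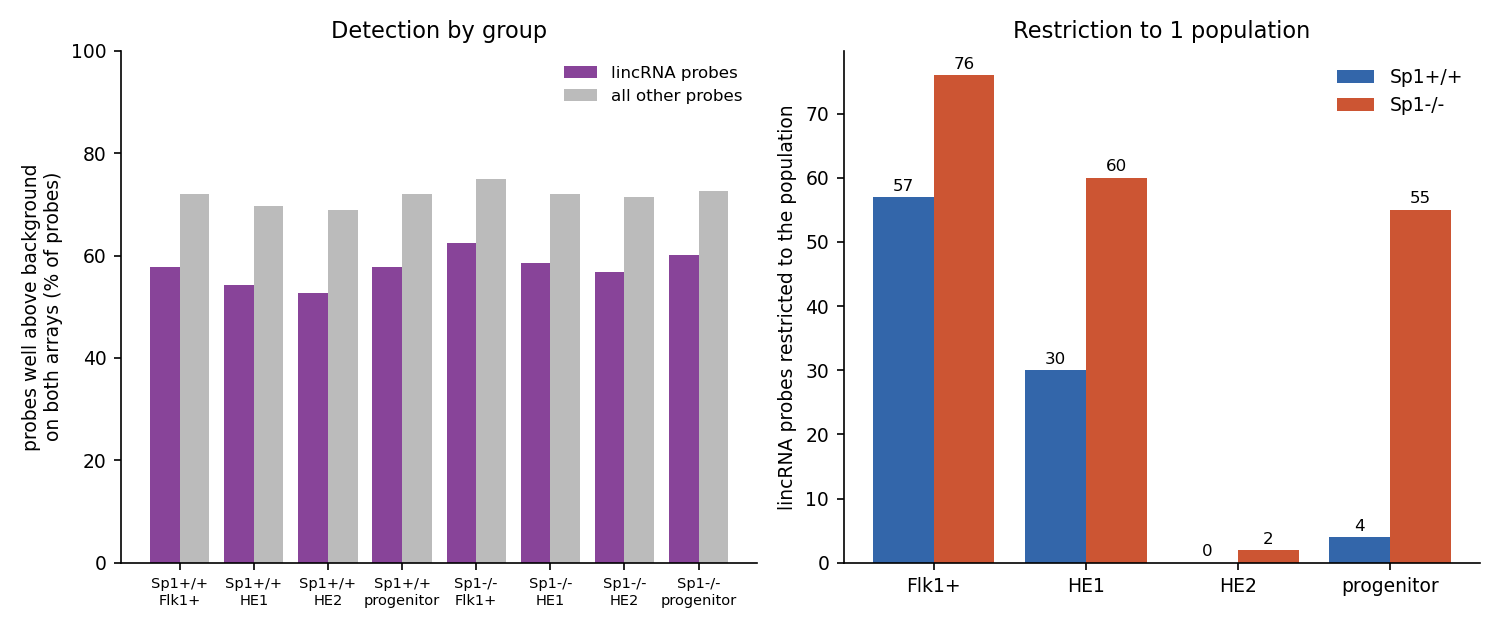
Left, share of lincRNA probes and of all other probes well above background on both arrays of each of the 8 groups (% of probes), with the lincRNA bars lower in every group. Right, number of lincRNA probes restricted to each population (at least 2-fold above each of the other 3) in Sp1+/+ and Sp1-/- cells, highest in Flk1+ cells (57 and 76) and 0 and 2 in HE2.

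Next, the change of the lincRNA probes over the 4 stages was compared with that of the other probes. In Sp1+/+ cells the distance between the highest and the lowest population mean was 0.22 on the log2 scale for the median lincRNA probe and 0.36 for the median other probe. It reached 1 or more for 3.49% of the lincRNA probes and for 15.9% of the others. In Sp1-/- cells the medians were 0.31 and 0.49, and the shares 8.28% and 22.3%.

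Dimness goes along with this difference, since 49.2% of the lincRNA probes but 31.1% of the others had a mean log2 value under 6.5, and 4.65% against 28.2% had one of 10 or more. Within bands of equal intensity the order stayed the same in Sp1+/+ cells. A distance of 1 or more was shown by 4.49% of lincRNA probes and 18.8% of others between 6.5 and 8, by 10.5% and 30.5% between 8 and 10, and by 13.5% and 21.2% from 10 upward. What remains of the difference inside a band was not tested against other features of the probes.

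At the first step, from Flk1+ cells to HE1 in Sp1+/+ cells, 141 lincRNA probes rose and 150 fell. The background of all probes was 3.93% called higher and 3.25% called lower, and the 291 lincRNA calls were 1.79% of the lincRNA probes. From HE1 to HE2, 25 rose and 56 fell, where 0.851% and 1.82% of all probes were called higher and lower. Without Sp1+/+ HE2 replicate 1 this split turned to 49 higher and 36 lower. Only 18 probes were called from HE2 to the progenitors, 10 higher and 8 lower, against 0.785% and 0.598% of all probes. This step had 14 higher and 49 lower calls without Sp1+/+ HE2 replicate 1, but 50 higher and 10 lower without Sp1+/+ progenitor replicate 1. The other probes had 3710, 1404 and 752 calls at these steps, so that in both classes the first step held the most calls.

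Calls at the first step were often shared by the probes of 1 target. The 291 probes belonged to 156 targets, 73 of them with at least 2 and 42 with at least 3 probes called the same way, and 80.6% of the 341 detected but uncalled probes of these targets had the same sign. Of the 42 targets, 22 were higher and 20 lower in HE1. The risen targets with the highest medians after H19 were 3 reverse-strand regions on chromosome 2 (chr2:128137419-128141735, chr2:128142035-128142481 and chr2:128211990-128215223), with medians over 3 probes each of 3.12, 2.85 and 2.56 on the log2 scale, and chr7:128341797-128414692 on the reverse strand with a median of 2.24 over 5 probes. Among those that fell, chr8:90048940-90049461 (forward) had a median of -3.25 and chr17:3346621-3347209 (forward) one of -2.64, both with all 3 probes called.

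A probe was named restricted to a population where it was called higher there than in each of the other 3 of its genotype. This held for 91 lincRNA probes on 47 targets in Sp1+/+ cells (0.56% of them), against 3.36% of all probes. They were 57 for Flk1+ cells (all probes 1.8%), 30 for HE1 (0.941%), 0 for HE2 (0.0216%) and 4 for the progenitors (0.598%). In Sp1-/- cells 193 lincRNA probes on 113 targets were restricted (all probes 4.69%), 76 to Flk1+ cells, 60 to HE1, 2 to HE2 and 55 to the progenitors. As shares these were 0.468%, 0.369%, 0.0123% and 0.338%, against 2.84%, 1.72%, 0.0457% and 1.53% of the other probes. Of the 91 probes, 60 were restricted to the same population in Sp1-/- cells (65.9% of the Sp1+/+ list and 31.1% of the Sp1-/- list) and 0 to a different one. None of the 4 progenitor probes of Sp1+/+ cells was on the Sp1-/- list of 55. Of the other probes, 329 were restricted to the progenitors in Sp1+/+ and 603 in Sp1-/- cells. The overlap of the 2 lists was not counted for the other probes, so it cannot be read as particular to lincRNAs. The genotypes were not tested against each other in these counts.

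**Figure D2:**
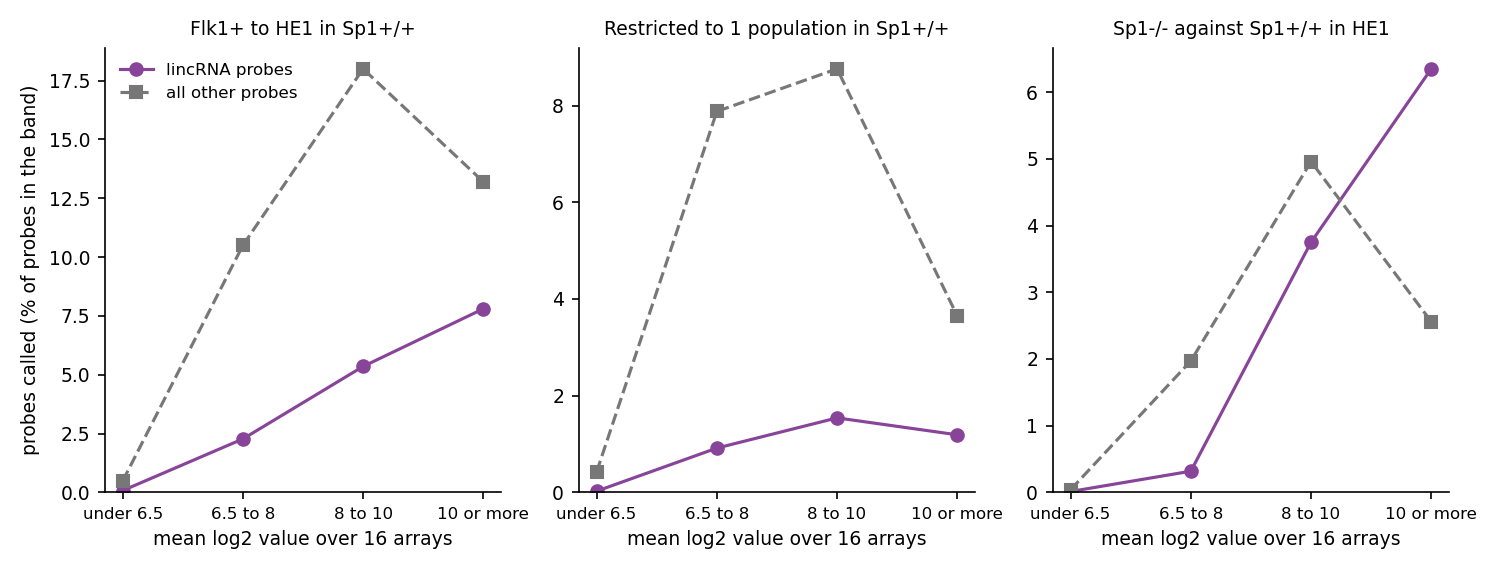
Share of probes called (% of the probes in a band) against the mean log2 value over 16 arrays in 4 bands, for lincRNA probes (circles) and all other probes (squares). For the step from Flk1+ cells to HE1 and for restriction to 1 population in Sp1+/+ cells the lincRNA share was below the other share in each band, and for Sp1-/- against Sp1+/+ in HE1 it was above it in the band from 10 upward (6.35% and 2.56%).

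The Flk1+ restricted probe with the largest lead read chr8:89996710-90049453 on the forward strand, which overlaps the fallen target at chr8:90048940-90049461. In Sp1+/+ cells it read 11.97 and 11.61 in Flk1+ cells, 8.15 and 7.35 for HE1, 7.90 and 7.71 for HE2, and 8.11 and 7.97 for progenitors. The Flk1+ arrays stood far above the other 6 and did not overlap with them, which follows from the choice of the probe by its lead. From Flk1+ cells to HE1 it fell by 4.04 on the log2 scale (standard error 0.367, adjusted p = 1.43e-05), or 16.4-fold. The Sp1-/- arrays had the same order, with 11.47 and 11.41 in Flk1+ cells and values of 6.90 to 8.78 later, and the Sp1 effect of -0.35, 0.37, -0.63 and -1.10 was not called. The next regions on the Flk1+ list were chr17:3346621-3347209 (forward) with a lead of 2.76 over the next population and chr1:63319842-63349796 (forward) with 1.84.

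In HE1, the restricted probe with the largest lead read chr7:106529142-106529752 on the reverse strand. It stood at 9.66 and 9.63 in Sp1+/+ HE1 and at 6.11 to 8.09 on the other Sp1+/+ arrays, and at 10.11 and 10.46 in Sp1-/- HE1 against 6.01 to 7.32. HE1 was thus the high stage without overlap in both genotypes. In Sp1+/+ cells this follows from the choice of the probe, and only the Sp1-/- arrays were not used to choose it. The other probes of this 3-probe target were not restricted. By contrast, 4 of 5 probes of chr13:34693404-34717987 (reverse) were, the leading one by 1.73, and its Sp1 effects were -0.29, -0.63, -0.91 and -0.64 by population with no call. An H19 probe came next on the HE1 list, with a lead of 1.60. For the progenitors the leads were smaller, at 1.27 for chr8:82836971-82849309 (reverse), 1.17 for chr8:119732348-119749198 (forward) and 1.04 for chr6:129151512-129208737 (reverse). Without Sp1+/+ progenitor replicate 2 the last 2 had steps from HE2 of 0.85 and 0.99 and were no longer called, nor was the chromosome 6 one without Sp1+/+ HE2 replicate 2 (0.89).

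The effect of Sp1 loss was then compared in each population. Over the 16251 lincRNA probes the median difference between Sp1-/- and Sp1+/+ cells was between 0.01 and 0.025 on the log2 scale, and over the other probes between -0.005 and 0.01. Among Flk1+ cells, 57 lincRNA probes were called higher and 31 lower without Sp1, where 0.632% and 0.691% of all probes were. HE1 had 87 higher and 48 lower calls (all probes 0.744% and 0.941%). The counts for HE2 were 32 and 38 (0.603% and 0.961%), and those for the progenitors 79 and 55 (1.22% and 2.12%). As a share, 0.431% to 0.831% of the lincRNA probes were called in a population against 1.65% to 4.37% of the other probes. The lincRNA probes were dimmer, but the gap was also seen inside bands of equal intensity. In each band under a mean log2 value of 10 the lincRNA share was the lower one in all 4 populations. Between 6.5 and 8 it was 0.334% against 2.14% in Flk1+ cells and 0.651% against 4.45% in progenitors. Between 8 and 10 it was 2.76% against 3.74% and 3.58% against 9.98% in these 2 populations. From 10 upward it was 2.38% against 1.65% in Flk1+ cells and 6.35% against 2.56% in HE1. In HE2 it was 1.98% against 2.11%, and in progenitors 3.57% against 5.65%. All called lincRNA probes were well above background on at least 1 array. Of the lincRNA calls 64.8%, 64.4%, 45.7% and 59.0% were on the higher side from Flk1+ cells to progenitors, against 45.5%, 40.7%, 38.0% and 34.8% for the other probes. The split was not tested and had no stable direction. With the scanner's processed signal 84.3% were higher in HE1, 73.8% in HE2 and, at the first stage step, 33.1%. Without Sp1+/+ Flk1+ replicate 2 the higher share was 48.0% in Flk1+ cells, without Sp1-/- Flk1+ replicate 1 there were 36 higher and 36 lower calls, and without Sp1+/+ HE1 replicate 1 the higher share was 46.5% in HE1. Without Sp1-/- HE2 replicate 1 or 2 it was 73.2% or 58.7% in HE2.

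These counts moved with single arrays. For HE1, without Sp1-/- HE1 replicate 2 it was 68, and without Sp1-/- HE1 replicate 1 it was 527. The Flk1+ count fell to 50 when Sp1+/+ Flk1+ replicate 2 was left out and reached 196 when replicate 1 was, and the HE2 count was 126 without Sp1+/+ HE2 replicate 1 and 168 without Sp1-/- HE2 replicate 1. The progenitor count of 134 lay between 133 and 176 whichever array was left out, but its direction turned from 79 higher and 55 lower to 52 higher and 86 lower without Sp1+/+ progenitor replicate 1.

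In at least 1 population 307 lincRNA probes on 228 targets were called (1.89%, against 6.92% of the other probes). Of these, 236 were called in 1 population, 40 in 2, 13 in 3 and 18 in all 4. Among the 18, 16 were lower everywhere and 2 were higher. The 16 lie on only 5 targets and the 2 on 2 targets, so they are not 18 separate changes. This split was not compared with that of the other probes. Opposite directions in different populations were found for 1 probe. Of the 1067 intervals read on both strands, 32 had a call in HE1 on the forward strand alone, 34 on the reverse alone and 1 on both. The other populations had none with a call on both, and 15 and 21 (Flk1+ cells), 12 and 23 (HE2) and 19 and 35 (progenitors) with a call on the forward or the reverse strand alone. Neither strand had a call in 1031, 1000, 1032 and 1013 of the intervals, from Flk1+ cells to progenitors. With calls this few, little overlap would be seen in any case, so no strand specificity can be read from these counts.

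Most called probes stood alone within their target. The calls fell on 60 targets in Flk1+ cells, 99 for HE1, 47 for HE2 and 94 for progenitors, and at least 3 probes of a target were called the same way in 8, 10, 5 and 11 of them. Across the populations this held for 19 targets. When the probes of a target were averaged before the fit, 12, 15, 13 and 22 targets were called, of which 7, 6, 3 and 10 were higher and 5, 9, 10 and 12 lower. The regions are named with their mm9 coordinates, the build of the array design. Which genes lie beside them was not analysed here.

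The region with the largest loss was chr5:67865049-67868521 on the forward strand. Its leading probe read 11.15 and 11.17 in Sp1+/+ Flk1+ cells, 10.43 and 10.34 for HE1, 10.65 and 10.48 for HE2, and 10.75 and 11.11 for progenitors. Without Sp1 it read 7.23 and 7.95, 7.01 and 6.91, 7.14 and 7.59, and 7.64 and 8.0. Every Sp1-/- array was below every Sp1+/+ array by a wide gap, at all stages. Probes named for their Sp1 effect in a population were drawn from those whose arrays do not overlap there. Such a separation, here and below, is therefore no added support. The log2 differences were -3.57, -3.42, -3.20 and -3.11 (standard error 0.225, adjusted p at most 1.67e-05), or 11.9-fold to 8.63-fold lower. All 3 probes of the target were called in all 4 populations, and a longer target, chr5:67854954-67869163, overlaps it on the same strand.

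A like pattern was found at chr11:97457180-97487074 on the forward strand, a target of 7 probes. Its leading probe read between 11.42 and 12.45 on the Sp1+/+ arrays and between 9.13 and 10.08 on the Sp1-/- arrays, with no overlap in any population. The differences were -2.10, -2.26, -2.38 and -2.35 (standard error 0.127, adjusted p at most 1.38e-05). Of its 7 probes, 6 were called in Flk1+ cells and HE1 and 7 in HE2 and progenitors, with medians of -1.78, -2.02, -2.24 and -2.19. On the other strand nearby, 1 of 9 probes of chr11:97505439-97522274 was called higher in Sp1-/- HE2 (1.44, adjusted p = 0.0929) and read 9.57 and 7.94 against 7.59 and 7.04. Without Sp1-/- HE2 replicate 1 the difference was 0.63 and not called, and without Sp1+/+ HE2 replicate 2 it was 1.17 and not called.

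**Figure D3:**
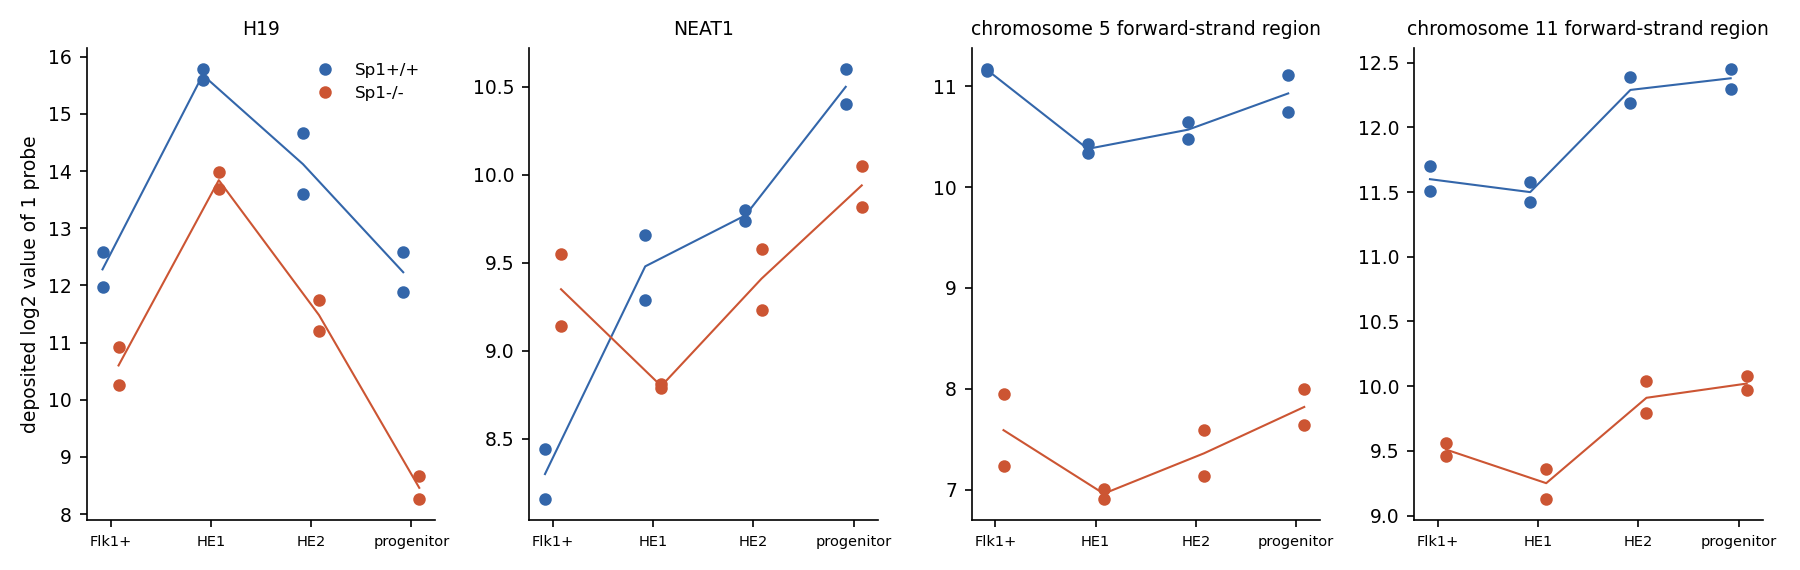
Deposited log2 value of 1 probe each for H19, NEAT1 and the forward-strand regions of chromosomes 5 and 11, by population and genotype, 2 points per group (1 per array) and lines through the means. The axes differ between panels and do not start at 0. Sp1-/- points lie below Sp1+/+ points at all stages for H19 and both regions, and above them in Flk1+ cells but not later for NEAT1.

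H19 was lower in all 4 populations by all 5 of its probes. The leading probe read 11.98 and 12.58 in Sp1+/+ Flk1+ cells, 15.59 and 15.78 for HE1, 13.59 and 14.66 for HE2, and 12.58 and 11.88 for progenitors. The Sp1-/- arrays read 10.26 and 10.93, 13.69 and 13.99, 11.21 and 11.74, and 8.27 and 8.66. HE1 was the high stage in both genotypes, and within each population both Sp1-/- arrays lay below both Sp1+/+ arrays. Over the 5 probes the Sp1 effect in Flk1+ cells was -1.68 to -1.32 (adjusted p 0.0248 to 0.0771), that in HE1 -1.84 to -1.68 (0.0143 to 0.028), that in HE2 -2.65 to -2.30 (0.00227 to 0.00898) and that in progenitors -3.76 to -2.39 (0.000103 to 0.00386). In Flk1+ cells all 5 probes lost the call without Sp1+/+ Flk1+ replicate 2 (-1.39 to -1.05) and without Sp1-/- Flk1+ replicate 1 (-1.35 to -0.95). In HE1 2 of the 5 lost it without Sp1+/+ HE1 replicate 2 (-1.59 and -1.55) and without Sp1-/- HE1 replicate 1 (-1.47 and -1.34).

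The stage course of H19 was also called at each step in Sp1+/+ cells by all 5 probes. It rose by 3.19 to 3.40 from Flk1+ cells to HE1 (adjusted p at most 0.000203), and changed by -1.60 to -1.52 from HE1 to HE2 (0.0246 to 0.0468) and by -1.90 to -1.58 from HE2 to the progenitors (0.025 to 0.0843). The probe restricted to HE1 with the lead of 1.60 lost its call from HE1 to HE2 without Sp1+/+ HE1 replicate 2 (-1.45) and without Sp1+/+ HE2 replicate 1 (-1.10). The larger Sp1 effect in progenitors than in Flk1+ cells was a difference of -2.08 to -0.93 over the probes, called for 2 of the 5, with adjusted p between 0.0561 and 0.509, and both calls were lost without Sp1+/+ Flk1+ replicate 1, Sp1+/+ progenitor replicate 1, Sp1-/- Flk1+ replicate 2 or Sp1-/- progenitor replicate 1 (-1.89 to -1.31), the second also without 7 of the other arrays. In RefSeq the coding genes next to H19 are Mrpl23 and Igf2, the paternally expressed growth factor that shares an enhancer region with H19. Igf2 differed by -0.74, -0.04 and -0.45 without a call in Flk1+ cells, HE1 and HE2, and was called lower in progenitors (-2.37, adjusted p = 0.00208). Mrpl23 differed by 0.10 to 0.28 and was not called.

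Markers of other cells moved along in the progenitors. The 5 fibroblast markers summed to 46.5 to 48.6 on the log2 scale in Sp1+/+ and to 37.0 to 37.3 in Sp1-/- progenitors, with 4 of 5 well above background in both and Lum on neither Sp1-/- array. The 5 muscle markers summed to 54.8 to 57.2 and 45.7 to 46.7, all detected in both. The 7 markers of hemogenic endothelium summed to 69.5 to 78.1 and 64.3 to 66.2, with 7 and 5 detected and Sox7 and Sox17 on neither Sp1-/- array. Their part in the progenitor values of H19 and the other lincRNAs was not tested.

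Of the remaining probes called in all 4 populations, 1 of 3 probes of chr3:48896525-48994125 (forward) was lower. It read 7.76 to 8.07 on the Sp1+/+ arrays and 6.04 to 6.56 on the Sp1-/- arrays, with differences from -1.69 to -1.40 (standard error 0.107, adjusted p at most 3.46e-05), and in Sp1-/- HE1 and progenitors only 1 array each was well above background. The 2 probes that were higher throughout read chr16:43623175-43624069 (forward; 1.22, 1.32, 1.16 and 1.12, adjusted p at most 0.000665) and chr15:79795261-79796945 (reverse; 1.66, 1.58, 1.23 and 1.08, adjusted p at most 0.0194). For the chromosome 16 probe the Sp1+/+ arrays lay at 8.06 to 9.22 and the Sp1-/- arrays at 9.08 to 10.51, without overlap inside a population. Without Sp1-/- progenitor replicate 1 the progenitor differences of both probes, 0.94 and 0.65, were no longer called, nor was the chromosome 15 one in HE2 (0.89) without Sp1-/- HE2 replicate 1. Over all 3 probes of the chromosome 16 target the medians were 1.06, 1.22, 0.93 and 0.83. The mean of the 2 probes of the chromosome 15 target lay at 6.40 to 6.62 on the Sp1+/+ arrays, at the dim end of the scale. Averaged, that target was called higher in HE1 alone (1.01).

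Some regions had probes called lower in HE1, HE2 and progenitors but not in Flk1+ cells. The leading 1 of the 3 probes of chr14:26973425-26986650 (forward) read 12.15 and 11.40 in Sp1+/+ and 11.67 and 11.22 in Sp1-/- Flk1+ cells, where the genotypes overlapped. In HE1 it read 12.94 and 12.75 against 10.51 and 10.77, and it stayed apart later. The differences of this probe were -0.33, -2.20, -1.81 and -1.52 (standard error 0.222, adjusted p 0.511, 0.000242, 0.000897 and 0.00123). In no population were all 3 probes of the target called. Averaged over them, the target was called lower in HE1 (-1.54) and HE2 (-1.24) but not in progenitors. Its neighbor chr14:26834450-26847000 on the same strand had -0.26, -2.01, -1.78 and -1.34 in its leading probe and 3 of 5 probes called in each of the 3 later populations. Both leading probes rose from Flk1+ cells to HE1 in Sp1+/+ cells, by 1.07 and 1.03.

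In Flk1+ cells the highest rise was at chr9:4260788-4261404 (forward). On the Sp1+/+ arrays this probe read between 6.18 and 6.41 and was not well above background on any array. The Sp1-/- arrays read 9.19 and 8.78 in Flk1+ cells, 7.32 and 7.12 for HE1, 7.59 and 7.02 for HE2 and 7.79 and 7.34 for progenitors, well above background on all 8 arrays. It was at least 6.57-fold higher in Flk1+ cells (measured means 8.98 and 6.27 on the log2 scale, adjusted p = 5.29e-05) and at least 1.89-fold to 2.46-fold higher later. These bounds set the bright mean against the dim probe's own signal or the lowest signal well above background, whichever was higher. Both probes of the target were called in Flk1+ cells.

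The next of the risen probes in Flk1+ cells stood alone in their targets. They were 1 of 3 probes of chr19:5795690-5797464 (forward; 1.77, adjusted p = 0.0814) and 1 of 5 of chr12:12768528-12849976 (reverse; 1.65, adjusted p = 0.0238). The first was not called without any 1 of the 4 Flk1+ arrays (1.58 to 1.96) and the second without Sp1+/+ Flk1+ replicate 2 (1.08). Several probes of 1 target were called together at chr13:98267049-98267604 (forward, 3 of 3, median 1.14) and chrX:165792277-165807952 (forward, 3 of 5, median 1.06), both higher, and at chrX:50400250-50410825 (reverse, 4 of 6, median -1.12) and chrX:50407969-50410370 (reverse, 3 of 3, median -1.21), which overlap and were lower. The 5 endoderm markers summed to 34.0 to 34.9 in Sp1+/+ and 38.0 to 38.5 in Sp1-/- Flk1+ cells, with 2 and 4 well above background and Afp and Apoa1 on neither Sp1+/+ array. Their part in the Flk1+ values was not tested.

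In HE1 the 4 probes with the largest rise shared their call with at most 1 other probe of the target. Those on chr19:5795690-5797464 (2.34, adjusted p = 0.022), chr15:61984389-62102500 (reverse; 1.79, adjusted p = 0.0413), chr14:115423660-115463160 (reverse; 1.74, adjusted p = 0.0534) and chr12:110944403-110988678 (reverse; 1.74, adjusted p = 0.0858) had 1, 1, 2 and 1 called probes out of 3, 10, 10 and 10. Their Sp1-/- HE1 arrays disagreed, at 10.10 and 11.64, 10.51 and 11.86, 9.83 and 11.72, and 6.68 and 9.26 for replicates 1 and 2. In all 4 the second replicate was the high one, and the Sp1+/+ HE1 arrays lay below both. Without Sp1-/- HE1 replicate 2 they differed by 1.57, 1.11, 0.80 and 0.45 and none was called. Without 1 of the Sp1+/+ HE1 arrays each of the 4 also lost its call, at 1.57 to 1.76, and the last one kept its call in none but 1 of the 16 fits without an array. The 5 fibroblast markers summed to 44.0 to 49.3 in Sp1+/+ HE1 and to 49.4 to 53.8 in Sp1-/- HE1, with 4 and 5 well above background. The 5 muscle markers summed to 63.2 to 64.0 and 64.4 to 65.3, and the 5 Flk1+ markers to 44.7 to 45.1 and 45.4 to 45.6. The 7 markers of hemogenic endothelium were lower without Sp1, at 90.5 to 91.0 and 89.3 to 89.8. The part of these markers in the HE1 values was not tested.

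Several probes of 1 target were called together in HE1 at other places. Besides those described, chr5:152006587-152008784 (reverse, 3 of 3, median 1.34) and chr13:58474388-58487288 (reverse, 3 of 4, median 1.19) were higher and chr4:146507925-146532650 (reverse, 4 of 5, median -1.32) was lower. The chromosome 5 target differed by -0.62, -0.03 and -0.22 in the other populations and had no call there. The chromosome 13 target was higher by 0.92 to 1.47 at the median in all populations and had all 4 probes called in HE2 and in progenitors. At chr16:43623581-43642715 (forward), which overlaps the chromosome 16 region called everywhere, 4 of 10 probes were called higher in HE1.

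**Figure D4:**
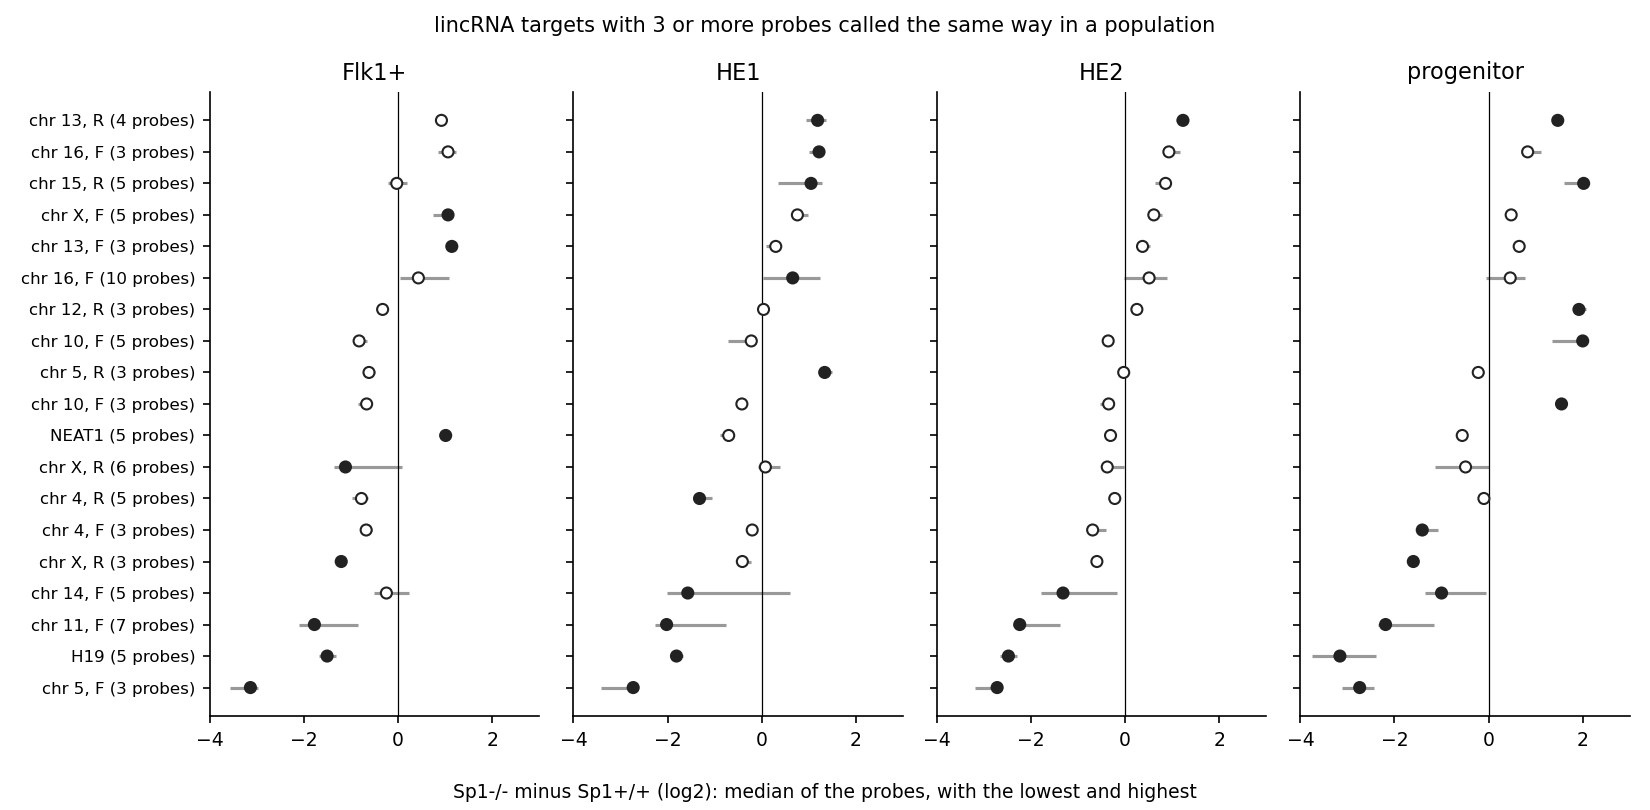
The 19 targets with 3 or more probes called the same way in a population, given by chromosome, strand (F forward, R reverse) and number of probes. Points are medians over the probes of the log2 difference between Sp1-/- and Sp1+/+ cells, bars run from the lowest to the highest probe, and filled points mark populations with 3 or more probes called. H19 and the chromosome 5 and 11 forward regions are filled and left of 0 in all 4 panels.

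In HE2 the 4 probes with the largest rise again stood alone in their targets. They read chr13:28537223-28539860 (reverse; 1.58, adjusted p = 0.0421), the chromosome 11 reverse region above, chr2:27394711-27402186 (reverse; 1.38, adjusted p = 0.000578) and chr7:16584852-16657252 (reverse; 1.33, adjusted p = 0.00517). The chromosome 2 probe was also higher in progenitors (1.42, adjusted p = 0.00023). It read 6.64 to 6.90 in Sp1+/+ and 8.02 to 8.50 in Sp1-/- cells of these 2 populations, without overlap, and differed by 0.08 in Flk1+ cells and 0.22 in HE1. The chromosome 13 probe lost its call without Sp1+/+ HE2 replicate 1 (1.25) and without Sp1-/- HE2 replicate 2 (1.56). The 8 blood markers summed to 88.2 to 90.4 in Sp1+/+ HE2 and 93.8 to 95.8 in Sp1-/- HE2, all detected. The 5 muscle markers summed to 56.6 to 57.4 and 53.4 to 56.3, with all detected, the 5 endoderm markers to 35.5 to 37.8 and 34.5 to 35.0, with 3 detected in both, and the 5 ES cell markers to 37.8 to 38.2 and 37.1 to 37.4, with all detected. The part of these markers in the HE2 values, those of H19 and the regions lower there included, was not tested.

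The progenitors had the risen regions with the most probes in accord. At chr10:83181374-83249774 (forward) all 5 probes were called higher, with a median of 2.00 (1.35 to 2.07). The leading probe read 10.64 and 10.36 in Sp1+/+ and 12.93 and 12.21 in Sp1-/- progenitors. It had been at 11.50 and 12.03 in Sp1+/+ Flk1+ cells and at 9.96 to 10.30 in Sp1+/+ HE2, and the Sp1-/- progenitors were its highest arrays. In the other populations the target differed by -0.83, -0.22 and -0.36 at the median with no call. An overlapping target, chr10:83185606-83225506, had all 3 probes called (median 1.55).

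At chr15:61919018-61935580 (reverse) all 5 probes were higher in progenitors (median 2.02, 1.61 to 2.06) and 3 in HE1 (median 1.05). The leading probe read 7.52 and 7.41 in Sp1+/+ Flk1+ cells, 8.17 and 7.68 for HE1, 9.11 and 9.06 for HE2 and 9.53 and 10.48 for progenitors. The Sp1-/- arrays read 7.43 and 7.47, 8.80 and 9.27, 9.91 and 10.07, and 12.14 and 12. It was higher at each later stage in both genotypes, and the genotypes overlapped in Flk1+ cells alone. The progenitor difference was 2.06 (standard error 0.262, adjusted p = 0.000512). All 3 probes of chr12:32781477-32808567 (reverse) were higher as well, with a median of 1.92, against -0.33, 0.04 and 0.25 in the earlier populations.

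Other progenitor changes rested on 1 probe. The largest was at chr2:179984199-179984669 (reverse), where 1 of 3 probes read 10.11 and 11.94 in Sp1+/+ and 14.50 and 13.98 in Sp1-/- progenitors (3.22, standard error 0.49, adjusted p = 0.0016). At chr8:35652473-35703370 (reverse) 1 of 3 probes read 6.29 and 6.87 against 8.69 and 8.79 (2.16, adjusted p = 1.84e-05) and was not well above background in any earlier population of either genotype. On the lower side, the only probe of chr6:34548561-34612216 (forward) read 9.04 and 8.69 in Sp1+/+ and 6.97 and 6.91 in Sp1-/- progenitors (-1.92, adjusted p = 0.00672), while both genotypes held it at 8.97 to 10.18 in HE1. All 3 probes were also lower at chr4:149445201-149445902 (forward, median -1.41) and at the chromosome X region already called in Flk1+ cells (median -1.60).

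Whether the Sp1 effect changed along the course was tested as the progenitor effect minus the Flk1+ effect. It was called higher for 79 lincRNA probes and lower for 54, where 1.21% and 1.91% of all probes were. With the processed signal 48.7% in place of 59.4% of these calls were higher, and the count of 133 became 289 without Sp1+/+ Flk1+ replicate 1. The clearest of the named RNAs was NEAT1, the RNA on which nuclear paraspeckles are built. The leading one of its 5 probes read 8.44 and 8.16 in Sp1+/+ Flk1+ cells, 9.66 and 9.29 for HE1, 9.74 and 9.80 for HE2 and 10.40 and 10.60 for progenitors. Without Sp1 it read 9.55 and 9.14, 8.81 and 8.79, 9.58 and 9.23, and 10.05 and 9.82. The Sp1-/- arrays were thus above the Sp1+/+ arrays in Flk1+ cells and below them in the 3 later populations, each time without overlap.

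By all 5 probes NEAT1 was higher in Sp1-/- Flk1+ cells by 0.87 to 1.04 on the log2 scale (adjusted p 0.000318 to 0.00825, 4 of 5 called). Its HE1 differences were -0.88 to -0.65 (adjusted p 0.00455 to 0.0413), its HE2 differences -0.36 to -0.27 (0.14 to 0.527) and its progenitor differences -0.67 to -0.51 (0.00861 to 0.0715), none past the 2-fold limit. The change of the effect from Flk1+ cells to progenitors was -1.62 to -1.52 and called for all 5 probes (adjusted p 0.00064 to 0.00614). In Sp1+/+ cells NEAT1 rose by 1.08 to 1.20 from Flk1+ cells to HE1, called for all 5. A Neat1 probe outside the lincRNA set differed by 0.97, -0.64, -0.32 and -0.59 in the same order. All 4 Flk1+ calls were lost without Sp1+/+ Flk1+ replicate 2 (0.89 to 0.94) and without Sp1-/- Flk1+ replicate 1 (0.84 to 0.95). The rise to HE1 fell just under 2-fold for 3 probes without Sp1+/+ HE1 replicate 1 (0.96 to 0.99) and for 1 without Sp1+/+ Flk1+ replicate 2 (0.91).

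The other 10 named RNAs had 1 called probe in the 4 populations. NEAT2, whose RefSeq symbol is Malat1 and which is found in nuclear speckles, differed by 0.59 to 0.69 in Flk1+ cells over 3 probes (adjusted p 0.0263 to 0.106) and by 0.02 to 0.28 later. Averaged over 3 probes each, chr19:5798135-5800557 (reverse) was called higher in Flk1+ cells (1.07) and chr19:5795690-5797464 (forward) in HE1 (1.02). Whether these chromosome 19 regions, named in mm9, belong to the NEAT2 locus was not examined. TUG1 had values below 0 for all 5 probes in all 4 populations, from -0.49 to -0.36 (Flk1+ cells), -0.90 to -0.43 (HE1), -0.36 to -0.23 (HE2) and -0.45 to -0.28 (progenitors), with a lowest adjusted p of 0.0198 in HE1 and no call. HOTAIR, transcribed from the HoxC cluster, was called higher in Flk1+ cells by 1 of 5 probes (1.16, adjusted p = 0.0281). That probe alone was well above background on all 16 arrays and 3 of the others were on none, so that the probes of HOTAIR disagree.

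KCNQ1ot1, an imprinted antisense RNA that silences neighbors such as Cdkn1c, differed by -0.40 to 0.80 over its 5 probes and the populations, with the 0.80 in HE1 (adjusted p = 0.0375) by 1 probe. Cdkn1c itself was called higher in HE1 (2.20, adjusted p = 0.00436). XIST and TSIX, the pair of RNAs of the X inactivation center, had 0 of 5 probes each well above background on all 16 arrays and differed by -0.22 to 0.34 and -0.14 to 0.14. NRON differed by -0.26 to 0.63 and PINC by -0.56 to 0.44, with 2 of 5 probes each on no array above background. BRN1-A (4 probes, -0.20 to 0.80) and lincP21 (5 probes, -0.44 to 0.26) had no call.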

How the data were processed

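Total RNA of 16 samples was labelled with Cy3 and hybridized to Agilent SurePrint G3 Mouse arrays, which were extracted with Agilent Feature Extraction (version 10.7.1.1 in the submitters' processing notes, 10.7.3.1 per the file headers). For each array the authors deposited the median intensity of each spot and of its local background, a processed signal intensity and flags for spots above background. A further table of log2 values was deposited by the authors after limma's normexp background correction and quantile normalization. The Supplementary Methods name an offset of 16, whereas recomputation came within 0.0258 of the table at an offset of 50 and within 1.63 at 16 (log2 scale). Each column of the table correlated best with its own array.

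The deposited log2 values were used. Control spots were left out, outlier spots set to missing and the spots of 432 probes averaged, which left 55681 probes, all tested without a filter. All 8 group means entered 1 limma model (limma 3.58.1 in R 4.3.3, 8 residual degrees of freedom), which gave every contrast, with Benjamini-Hochberg adjustment. The model was also run on simulated data, with changes added to 200 brighter lincRNA probes and independent noise. The simulation held no slide effect, so it does not bear on slides, dim probes or the shared signal of probes of 1 target. The replicate numbers do not pair the samples: deviations of equal numbers correlated between -0.172 and 0.275 across the genotypes, above 0.1 in 2 of 4 populations. Between 95 and 182 spots per array were marked as outliers.

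Named are, for each population, the 4 called lincRNA probes that rose most and the 4 that fell most, drawn from those whose arrays do not overlap between the genotypes and that are well above background on both arrays of the higher group, the 3 restricted probes with the largest lead, and up to 8 probes called alike in all 4 populations, at most 1 per region. The 12 named RNAs and the targets with 3 or more called probes were added with their values known. A further part of the rule, called probes within 100 kb of listed genes, was not applied, since the probes of genes carry no coordinates. Gene symbols and neighbors came from RefSeq (GRCm38.p6), which named 26582 of 28116 accessions. The members and lists were chosen with earlier results of these data known. Alternatives were normexp with an offset of 16, the processed signal scaled to the 75th percentile, 2 intensity filters, an adjusted p of 0.05, an intensity trend, a replicate block, leaving out each array, the mean over probes of a target, only the arrays compared, and a 2-sample t-test with equal variances.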

Additional observations from a re-analysis of the deposited data

Results flagged for a closer look

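For 16 of the named probes the Sp1 effect in progenitors differed from that in Flk1+ cells by the interaction contrast of the limma model, with the same thresholds as the other calls. The differences (progenitor effect minus Flk1+ effect, log2) were negative for 11 probes. H19 had -2.08 (adjusted p = 0.0561) and -1.78 (0.129) by 2 of its 5 probes, with a loss in both populations. NEAT1 had -1.62, -1.61, -1.54, -1.54 and -1.52 (adjusted p 0.00064 to 0.00614) by all 5, with opposite signs in Flk1+ cells and progenitors. The region chr6:34548561-34612216 had -2.08 (0.0541), chr9:4260788-4261404 had -1.42 (0.0219), chr14:26973425-26986650 had -1.19 (0.0651) and chr14:26834450-26847000 had -1.08 (0.104).

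The differences were positive for 5 probes, which were chr2:27394711-27402186 with 1.35 (0.00821), chr15:61919018-61935580 with 2.08 (0.0113), chr8:35652473-35703370 with 2.14 (0.00112), chr10:83181374-83249774 with 2.74 (0.013) and chr2:179984199-179984669 with 2.78 (0.0515). The size of the chromosome 9 difference is not exact, since that probe was not well above background on any Sp1+/+ array, nor is that of chr8:35652473-35703370, whose probe was not well above background in either Flk1+ group. Leaving out 1 array ended some of these calls besides those of H19. The chromosome 14 probes had -0.81 and -0.71 without Sp1+/+ Flk1+ replicate 2, -0.97 and -0.77 without Sp1-/- Flk1+ replicate 1, and lost the call without some progenitor arrays too, the chromosome 6 probe had -1.91 without Sp1+/+ progenitor replicate 1, and the probe of chr2:179984199-179984669 had 2.52 without Sp1-/- progenitor replicate 1. All 16 compare genotypes on different slides in both populations. Each group has 2 arrays, so no array of a group could be tested as standing apart from the rest of its group.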

How the results depend on the processing

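Counts of called lincRNA probes are given as Flk1+ cells, HE1, HE2 and progenitors (main 88, 135, 70 and 134), the interaction (133), the stage steps in order (291, 81 and 18) and probes restricted in Sp1+/+ and Sp1-/- cells (91 and 193). With normexp at an offset of 16 they were 206, 111 and 232 from HE1 on, 254 for the interaction, 473, 144 and 57 for the steps and 172 restricted in Sp1+/+ cells. With the processed signal, which shifted the median of all probes in HE1 by 0.201, they were 414, 822, 500 and 707, 415 for the interaction, 1025, 398 and 294, and 380 and 511. Averaged over the probes of a target, which counts targets, they were 12, 15, 13 and 22, then 26, then 66, 15 and 2, and 18 and 44. An adjusted p of 0.05 left 88 for the interaction and 9 for the last step, and the arrays compared alone gave 80 in HE1. A 2-sample t-test with equal variances called 23, 24, 25 and 52, and 0 in each population after Benjamini-Hochberg, with 2 arrays per group. Leaving out arrays gave 50 to 196 in Flk1+ cells (lowest without Sp1+/+ Flk1+ replicate 2, highest without replicate 1), 68 to 527 in HE1 (without Sp1-/- HE1 replicates 2 and 1), 67 to 168 in HE2 (highest without Sp1-/- HE2 replicate 1), 98 to 289 for the interaction (highest without Sp1+/+ Flk1+ replicate 1) and 13 to 63 for the last step (highest without Sp1+/+ HE2 replicate 1). The replicate block, although the numbers do not pair the samples (11 of 28 pairs of groups correlated above 0.1), gave 87, 137, 68 and 139, then 148, then 292, 80 and 17, and 91 and 194. The looser flag of a positive and significant spot gave 14600 lincRNA probes in at least 1 group in place of 11551.

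Of 117 values of single probes, 33 kept their call and direction under every alternative run and 0 reversed. The analysis of neighboring genes within 100 kb was not run. Limits common to all counts are 2 arrays per group, 1 clone of Sp1-/- cells and genotypes on separate slides, and 28.9% of the lincRNA probes were not well above background on both arrays of any group, which limits detection for them. The causes of these moves were not tested.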
